A study of Homo sapiens with 12 samples.

Results

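The genes described here encode the protein subunits of the mitochondrial ribosome. They were taken as every protein-coding gene whose symbol is MRPL or MRPS followed by a digit, with symbols assigned to the deposited Ensembl identifiers through GENCODE release 44. The rule found 78 of the 28747 genes in the count table, 49 MRPL genes named for the large subunit and 29 MRPS genes named for the small subunit. The members lie on 21 chromosomes, with no more than 8 on any of them.

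The mitochondrial ribosome translates the few messenger RNAs that are made from mitochondrial DNA, which encode membrane-embedded subunits of the respiratory chain and of the ATP synthase. Its RNAs are made inside the organelle, whereas all of its proteins are encoded in the nucleus, translated in the cytosol and imported. The large subunit joins amino acids and releases the growing chain through an exit tunnel at the inner membrane, and the small subunit binds and reads the messenger RNA. Many of its proteins have a bacterial counterpart, and others occur only in mitochondria. In the assembled particle the proteins of MRPS18A and MRPS30 sit in the large subunit despite their symbols, and MRPS36 is now known as a component of the 2-oxoglutarate dehydrogenase complex.

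RNA was sequenced from DU145 cells, a castration-resistant prostate cancer cell line, which stably expressed either a control short hairpin RNA (shCtrl) or a knockdown hairpin (shSigma) delivered by lentivirus. Each line was grown attached to plastic (adherent) or as tumor spheres, which form at low density in serum-free, non-adherent culture, giving 4 groups of 3 libraries. All groups share the DU145 background and carry a hairpin, and the sources used here do not say which of the study's hairpins the sequenced shSigma cells carried.

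The libraries held 16472722 to 26957777 counts, of which the members took 0.348% to 0.475%. Levels are given in CPM, counts per 1e6 of a library total that was rescaled by a normalization factor (TMM, described below). Mean levels carry the SD of 3 libraries, and p-values come from edgeR. KRT8, KRT18 and KRT19, keratins of epithelial cells, were present in every library, and PTPRC and PECAM1, which mark leukocytes and endothelium, had at most 7 counts in any. Of the fibroblast markers, PDGFRB had at most 14 counts in any library. COL1A1 was present, at 3.23 to 24.9 CPM, and was highest in tumor sphere shCtrl libraries (18.7 to 24.9 CPM). EPCAM and CDH1, which mark epithelial adhesion, moved with both the hairpin and the culture. EPCAM stood at 213 to 264 CPM in adherent shCtrl and 29.7 to 32.4 CPM in adherent shSigma libraries. In tumor spheres it stood at 578 to 663 CPM in shCtrl and 60.7 to 63.6 CPM in shSigma libraries. CDH1 stood at 26.8 to 26.9 CPM in adherent shCtrl and 10.7 to 13.9 CPM in adherent shSigma libraries. In tumor spheres it stood at 678 to 770 CPM in shCtrl and 23.9 to 30.1 CPM in shSigma libraries. Their part in the results was not tested. In bulk RNA, fewer cells of a kind and less RNA per cell cannot be told apart.

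The adherent libraries differed from one another in how their levels followed the GC content of the exons. Over 70 members with a mean of at least 5 CPM, the deviation of log2(CPM + 1) from the mean of all 12 libraries changed by -0.34, -0.18 and -0.04 per 10 percentage points of GC in adherent shCtrl libraries 1, 2 and 3. In the adherent shSigma libraries the change was 0.04, 0.11 and -0.22. Adherent shCtrl 1 and shSigma 3 thus had the lowest slopes of their groups, with relatively more RNA from members of low GC content. The adherent shCtrl slopes were spread about evenly, whereas shSigma 3 stood apart from shSigma 1 and 2. The tumor sphere slopes lay between -0.04 and 0.04 in shCtrl and between 0.15 and 0.25 in shSigma. A second fit that models each library's GC dependence, called the GC offset below, was therefore made for every comparison.

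75 of the 78 members had enough counts to be tested, and 34 had a median over 1000 counts per library. Per kilobase of exon, the most abundant were MRPS21, a small subunit protein, with a mean of 119 CPM per kb, MRPL14 with 69.0 CPM per kb and MRPL51 with 66.6 CPM per kb. The 3 members that were not tested were MRPS18B, MRPS12 and MRPL45, which were also the least abundant per kb. MRPS18B and MRPS12 were listed at 0 counts in every library, and MRPL45 had 0 to 2 counts per library and 7 in all. MRPL45 encodes a protein of the exit tunnel region that anchors the ribosome to the inner membrane, MRPS12 a protein of the decoding centre, and MRPS18B one of 3 paralogs.

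The 3 genes differ in how much of their sequence is repeated elsewhere in the reference. When their exons were cut into windows of 75 bases, the length of the sequenced reads, 0% of the MRPS18B windows and 0.704% of the MRPL45 windows occurred at a single place in the hg38 sequence set that includes alternate and patch sequences, against 98.9% and 88.1% in its primary chromosomes. For MRPS12, 100% of windows were at a single place in either set, and SARS2, the mitochondrial seryl-tRNA synthetase gene beside it, was also listed at 0. Whether reads were aligned to the alternate sequences, and how reads with several places were counted, is not stated in the sources used here. The 0 counts are therefore given as listed values and not as absence of RNA. An example window inside each gene is shown, to make plain what a read from it would look like; the MRPS18B window occurs at 7 places, the MRPL45 window at 2 and the MRPS12 window at 1 in the full set (GRCh38).
MRPS18B, chr6:30617866-30617940, plus strand: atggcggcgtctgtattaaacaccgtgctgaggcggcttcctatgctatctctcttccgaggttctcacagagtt
MRPL45, chr17:38298449-38298523, plus strand: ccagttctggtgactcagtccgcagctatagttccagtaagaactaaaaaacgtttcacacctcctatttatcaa
MRPS12, chr19:38932333-38932407, plus strand: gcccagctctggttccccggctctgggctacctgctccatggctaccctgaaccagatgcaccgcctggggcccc

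MRPS36 and MRPL23 had 5.89% and 8.01% of windows at a single place in that set and are uncertain for the same reason, with 6.20 to 12.8 CPM and 0.965 to 3.42 CPM. The other 74 members had at least 80% of windows at a single place. For 9 members, among them MRPL53, MRPL12, MRPL38, MRPS28 and MRPL2, more than 20% of the exon length overlapped an exon of another gene on the same strand, and for these reads of both genes cannot be separated here.

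Knockdown in adherent cells was accompanied by lower RNA for many mitochondrial ribosomal proteins of both subunits. Of the 75 members tested, 39 were lower and 3 were higher in shSigma than in shCtrl cells at an adjusted p under 0.05. Over all genes tested in this comparison, 27.7% were lower and 22.3% were higher (50.0% in either direction). The median log2 fold change was -0.32 over the members and -0.01 over all genes, and 60 of the 75 members lay below 0. The shSigma libraries were all below the shCtrl libraries for 40 members, where 27.8% of all genes were separated in that direction. The summed level of the members was 4649, 4240 and 4231 CPM in shCtrl and 3493, 3506 and 3694 CPM in shSigma libraries, so the groups did not overlap. Leaving out shSigma 1 or shSigma 2 reduced the members called lower to 24 or 25.

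MRPL1, which lies beside the site where spent tRNA leaves the large subunit, changed the most among members with at least 5 CPM. Its level was 44.5, 38.5 and 36.1 CPM in shCtrl libraries and 16.05, 14.2 and 17.6 CPM in shSigma libraries. Every shSigma library was under every shCtrl library, a 2.61-fold lower level (log2 fold change -1.38, SE 0.119, adjusted p = 9.01e-05). MRPL52, a mitochondria-specific protein of the large subunit, followed with 31.8, 30.4 and 31.5 CPM against 13.5, 14.5 and 15.8 CPM. These groups were also far apart (-1.16, SE 0.0826, adjusted p = 4.09e-05). MRPS15, a small subunit protein with a bacterial counterpart, was the lowest of its subunit, at 126, 110 and 105 CPM in shCtrl and 53.7, 56.0 and 55.6 CPM in shSigma libraries (-1.11, SE 0.093, adjusted p = 8.1e-05). These 3 were the only members called with a log2 fold change past -1 in adherent cells.

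Next in size were MRPL15, MRPL37, MRPL13, MRPL22, MRPL39, MRPS28 and MRPS27, with log2 fold changes from -0.97 to -0.75. MRPL37, a mitochondria-specific protein related to MRPS30, stood at 126, 118 and 125 CPM in shCtrl and 68.5, 69.5 and 66.4 CPM in shSigma libraries. The spread within either group was small beside this difference (-0.91, SE 0.0687, adjusted p = 5.09e-05). MRPS30 itself stood at 88.0, 93.9 and 89.8 CPM in shCtrl and 90.8, 93.3 and 99.3 CPM in shSigma libraries, so its groups overlapped (log2 fold change 0.00, adjusted p = 0.968). With the GC offset it was called higher, at 0.165 (adjusted p = 0.0345). MRPL22, which lines the exit tunnel, was at 70.7, 56.7 and 56.1 CPM in shCtrl and at 35.1, 31.5 and 41.1 CPM in shSigma libraries, without overlap (-0.84, SE 0.128, adjusted p = 0.00127).

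Tumor spheres showed the same direction of difference for a similar number of members. In tumor spheres 40 of the 75 members were lower and 8 were higher with knockdown, against 30.9% and 30.2% of all genes tested (61.1% in either direction). The median was -0.26 over the members and 0.00 over all genes, with 63 members below 0 and 41 separated without overlap in the lower direction (33.3% of all genes). The summed level was 4218, 4695 and 4481 CPM in shCtrl and 3877, 3592 and 3647 CPM in shSigma libraries, again without overlap. MRPL1 was again the lowest, at 31.8, 41.8 and 37.7 CPM in shCtrl and 15.6, 17.1 and 17.8 CPM in shSigma libraries (-1.14, SE 0.103, adjusted p = 1.89e-06). MRPL13 and MRPL39 followed, with -1.03 and -0.97. MRPL39, of the exit tunnel region, was at 51.1, 56.6 and 51.7 CPM in shCtrl and 28.9, 23.7 and 28.7 CPM in shSigma libraries, with a clear gap between the groups (SE 0.0842, adjusted p = 1.38e-06). In the small subunit the lowest was MRPS28, at 13.5 to 13.9 CPM in shCtrl and 6.68 to 8.07 CPM in shSigma libraries (-0.93, SE 0.107, adjusted p = 1.49e-05).

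The adherent and tumor sphere knockdown comparisons use different libraries and can be set side by side. 30 members were lower in both, 2 were higher in both and 0 were called in opposite directions. A further 9 were lower only in adherent cells, 10 were lower only in tumor spheres, 1 was higher only in adherent cells, 6 were higher only in tumor spheres and 17 were called in neither. The matching shares over all genes are not given, so this overlap of calls cannot be set beside that of all genes. In the single comparisons, 27.7% and 30.9% of all genes were lower and 22.3% and 30.2% higher. A call in a single culture does not by itself show a difference between the cultures, and that difference is tested further on. The number lower in both was 27 with DESeq2, 32 with the GC offset and 23 in the blocked fit by replicate number, and of these 27, 29 and 23 were among the 30.

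**Figure D1:**
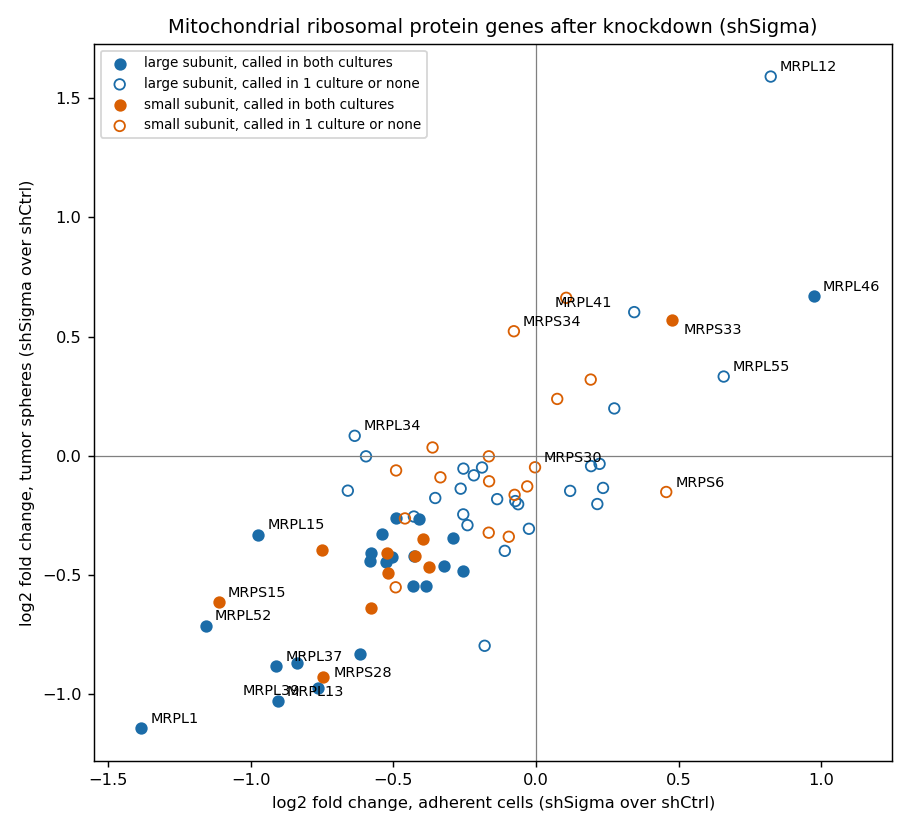
Each point is a member, with its log2 fold change (shSigma over shCtrl) in adherent cells on the x axis and in tumor spheres on the y axis. Colour marks the subunit by symbol, blue for large and orange for small. Filled points were called in both cultures, open points in 1 culture or none. Of 75 tested members, 30 were lower in both cultures, with MRPL1 at -1.38 and -1.14, and MRPL46 and MRPS33 were higher in both.

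Promoter sequences of 4 of the members named above are shown because all of them fell in both cultures while their letters differ. Each is the 250 bases before the RefSeq start (GRCh38.p14), 5′ to 3′ on the strand of the gene. Capitals mark matches on either strand to the letters CACGTG (the E-box), CCGGAAG (bound by ETS factors), ATGGCG (the core of the YY1 motif) or TGCGCA (a short form of the NRF1 motif).
MRPL1, chr4:77862580-77862829, plus strand: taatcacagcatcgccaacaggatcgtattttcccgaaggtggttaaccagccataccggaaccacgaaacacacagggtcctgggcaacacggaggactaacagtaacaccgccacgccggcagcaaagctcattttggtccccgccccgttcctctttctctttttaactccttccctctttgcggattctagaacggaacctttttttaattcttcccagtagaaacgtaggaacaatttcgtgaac
MRPL52, chr14:22829637-22829886, plus strand: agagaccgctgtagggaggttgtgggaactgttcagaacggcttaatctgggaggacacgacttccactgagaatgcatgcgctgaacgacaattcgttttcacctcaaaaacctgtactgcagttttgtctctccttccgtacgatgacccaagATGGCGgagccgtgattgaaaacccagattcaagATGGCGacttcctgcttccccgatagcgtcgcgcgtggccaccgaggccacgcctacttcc
MRPL37, chr1:54199917-54200166, plus strand: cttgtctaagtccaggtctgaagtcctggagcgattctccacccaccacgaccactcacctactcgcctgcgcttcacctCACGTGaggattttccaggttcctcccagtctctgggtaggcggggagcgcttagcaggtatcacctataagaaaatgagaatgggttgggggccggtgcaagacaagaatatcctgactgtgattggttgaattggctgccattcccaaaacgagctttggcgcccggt
MRPL22, chr5:154940823-154941072, plus strand: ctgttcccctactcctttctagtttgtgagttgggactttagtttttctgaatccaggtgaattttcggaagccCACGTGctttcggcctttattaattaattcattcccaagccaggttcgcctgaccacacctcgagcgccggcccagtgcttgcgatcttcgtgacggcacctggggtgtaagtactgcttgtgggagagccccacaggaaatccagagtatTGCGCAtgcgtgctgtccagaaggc
MRPL1 held none of the letters searched, MRPL52 held ATGGCG at 2 places, MRPL37 held CACGTG, and MRPL22 held CACGTG and TGCGCA. None of the 4 held CCGGAAG, which was in 9 of 25 such windows of members lower in both cultures. They were picked to differ and do not represent that group.

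RefSeq promoter windows matched 69 of the 78 members, and MRPL35, MRPS36, MRPL2, MRPL15, MRPS28, MRPL13, MRPL23, MRPL21 and MRPL10 had none in the table. In the 250 bases before the start, CCGGAAG was in 23 of the 69 (33.3%) and in 8.82% of all 27305 promoters, TGCGCA in 13 (18.8%, against 7.05%), ATGGCG in 11 (15.9%, against 6.50%) and CACGTG in 6 (8.70%, against 6.49%). Among protein-coding genes that were tested, the shares were 15.8%, 11.4%, 8.93% and 8.83% in the same order. Of the 25 windows from members lower in both cultures, 9 held CCGGAAG, 4 TGCGCA, 5 ATGGCG and 4 CACGTG. Of the 44 other windows, 14, 9, 6 and 2 held them. In the whole window of 300 bases, which runs past the start and can include the start codon ATG, ATGGCG was in 33 members (47.8%) and in 11% of all promoters (17.9% of protein-coding genes tested). These are matches of letters in a window and not sites of binding.

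27 of the 78 members (34.6%) had a protein-coding gene starting within 1000 bases on the opposite strand, against 13.4% of all 20046 protein-coding genes. The partners are described by their own calls. MRPL46 and MRPS11 are partners of each other, and the counts that follow leave them out. In adherent cells 20 pairs had both genes tested, and of the 12 pairs with a lower member, the partner was lower in 3 and higher in 2. In tumor spheres 19 pairs were tested, and of the 12 with a lower member the partner was lower in 4 and higher in 3. The medians were -0.34 for the members and -0.09 for the partners in adherent cells, and -0.35 and 0.04 in tumor spheres.

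Both subunits took part in the difference with knockdown. In adherent cells 27 of 48 large subunit genes were lower and 1 was higher (median -0.31), and 12 of 27 small subunit genes were lower and 2 were higher (median -0.34). In tumor spheres 28 large subunit genes were lower and 4 higher (median -0.26), and 12 small subunit genes were lower and 4 higher (median -0.16). With MRPS18A and MRPS30 counted in the large subunit, the medians were -0.28 and -0.36 in adherent cells and -0.26 and -0.16 in tumor spheres. Under both assignments MRPS36 was kept in the small subunit by its symbol, also in the sums below. Its values were -0.49 (not called) in adherent cells and -0.55 (called lower) in tumor spheres. Which subunit had the lower median thus differed between the cultures under either assignment.

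The summed levels of the subunits gave another view, in which abundant members weigh more. The large subunit sum was 2577 ± 147 CPM in adherent shCtrl and 2040 ± 39.0 CPM in adherent shSigma cells (SD, n = 3), and the small subunit sum 1796 ± 92.1 and 1525 ± 75.0 CPM. The ratio of large to small was 1.44 in adherent shCtrl (1.42 to 1.44) and 1.34 in adherent shSigma libraries (1.29 to 1.37). In tumor spheres it was 1.54 in shCtrl libraries (SD 0.00338) and 1.38 in shSigma libraries (1.34 to 1.42). In both cultures every shSigma library had a lower ratio than every shCtrl library. The smallest two-sided p that an exact permutation test of 3 against 3 allows is 0.1, and no test was made. With MRPS18A and MRPS30 counted in the large subunit the ratios were 1.63, 1.57, 1.78 and 1.61 in the same order of groups.

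**Figure D2:**
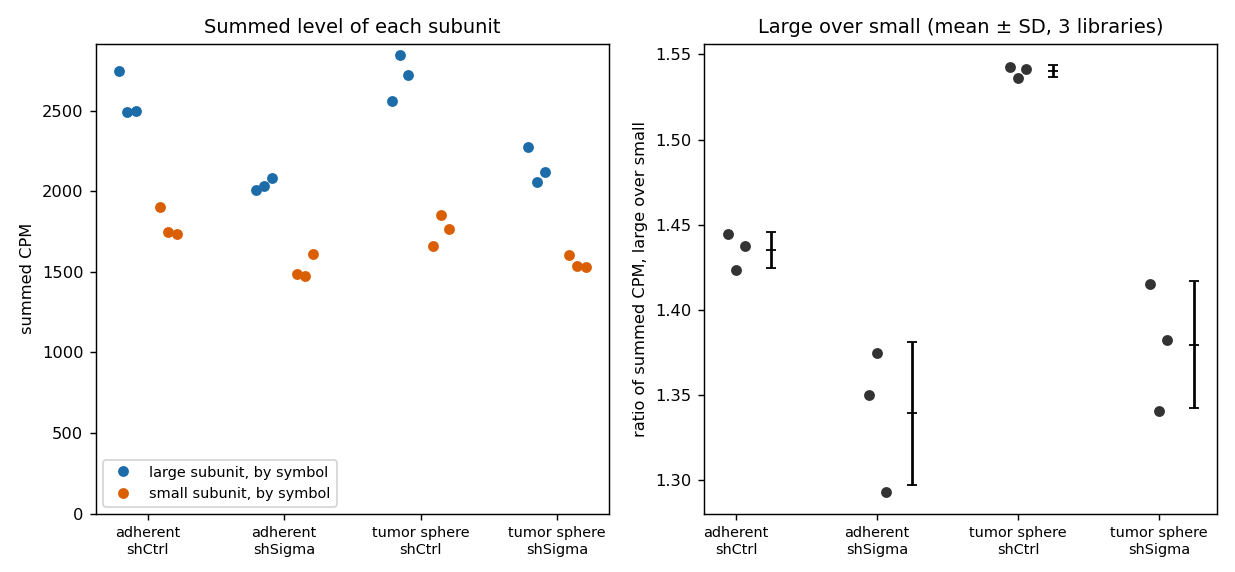
Left, summed CPM of large (blue) and small (orange) subunit genes by symbol in each of the 12 libraries; right, the ratio of large to small in each library, with mean ± SD of 3 libraries, on an axis that does not start at 0. The mean ratio was 1.44 and 1.34 in adherent shCtrl and shSigma and 1.54 and 1.38 in tumor sphere shCtrl and shSigma libraries.

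Within the large subunit, the genes were also divided by the place of their protein in the particle. Their counts are to be set beside 27.7% lower and 22.3% higher of all genes in adherent cells, and 30.9% and 30.2% in tumor spheres. Of 7 tested exit tunnel genes (MRPL17, MRPL22, MRPL23, MRPL24, MRPL39, MRPL44 and MRPL47), 4 were lower in adherent cells (median -0.26) and 6 were lower in tumor spheres (median -0.80), with 0 higher in either. Without MRPL23, whose counts are uncertain, the medians were -0.44 and -0.62. The adherent call of MRPL24 (-0.25) was lost in several settings. Among them were DESeq2 (adjusted p = 0.131), the replicate block (0.118) and the fits without shCtrl 1 (0.207) or shSigma 1 (0.294). MRPL47, of the same region, stood at 72.2, 93.4 and 77.1 CPM in tumor sphere shCtrl and 48.0, 41.1 and 47.4 CPM in shSigma libraries, without overlap (-0.83, SE 0.0957, adjusted p = 2.36e-05). Of 5 genes of the stalk that recruits translation factors (MRPL10, MRPL11, MRPL12, MRPL53 and MRPL54), 1 was lower in adherent cells (median 0.12), and 2 were lower and 1 was higher in tumor spheres (median -0.15). MRPL11 was the stalk gene lower in both (-0.58 and -0.41). Of 7 genes of the central protuberance, where the subunits touch at the top of the particle, 2 were lower and 1 higher in each culture, with medians of -0.14 and -0.18. The share lower, 28.6% in each culture, was near that of all genes. For the 5 stalk genes it was 20% and 40%.

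Members with a bacterial counterpart and mitochondria-specific members were both affected. The shares of all genes are again 27.7% lower and 22.3% higher in adherent cells, and 30.9% and 30.2% in tumor spheres. Of 43 with a counterpart, 25 fell and 1 rose in adherent cells (median -0.36), and 22 fell and 3 rose in tumor spheres (median -0.20). Of 28 mitochondria-specific members, 13 fell and 2 rose in adherent cells (median -0.25), and 15 fell and 5 rose in tumor spheres (median -0.26). The sections by place and by origin rest on few genes each, and no test was made between them.

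Few members went against the rest. MRPS33, a mitochondria-specific protein of the small subunit, was at 41.4, 32.4 and 31.3 CPM in adherent shCtrl and 46.8, 48.0 and 58.7 CPM in adherent shSigma libraries, and at 32.9, 38.4 and 37.0 CPM in tumor sphere shCtrl and 56.8, 51.0 and 53.5 CPM in tumor sphere shSigma libraries. The groups did not overlap in either culture (log2 fold change 0.48, SE 0.135, adjusted p = 0.0208 in adherent cells, and 0.57, SE 0.075, adjusted p = 4.33e-05 in tumor spheres). The adherent call was lost without shCtrl 3 (adjusted p = 0.0561) and with the replicate block (adjusted p = 0.0596). MRPL46, of the central protuberance, rose from a low level, with 2.15, 2.24 and 2.45 CPM in adherent shCtrl and 4.71, 4.97 and 4.34 CPM in adherent shSigma libraries (0.97, SE 0.144, adjusted p = 0.00109). In tumor spheres it was at 3.10, 2.10 and 3.12 CPM in shCtrl and 3.83, 5.09 and 4.397 CPM in shSigma libraries (0.67, SE 0.188, adjusted p = 0.00865). Its groups were apart in both cultures.

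MRPS6, the counterpart of bacterial ribosomal protein S6, was higher with knockdown only in adherent cells. It was at 30.3, 27.6 and 25.8 CPM in adherent shCtrl and 39.996, 37.1 and 43.2 CPM in adherent shSigma libraries (0.46, SE 0.0955, adjusted p = 0.00558). In tumor spheres the levels were 43.1, 53.4 and 46.8 CPM in shCtrl and 45.0, 41.8 and 42.5 CPM in shSigma libraries, which overlapped (-0.15, adjusted p = 0.119). In tumor spheres the members called higher, besides MRPS33 and MRPL46, were MRPL12, MRPL41, MRPL43, MRPS11, MRPS14 and MRPS34, with log2 fold changes from 0.20 to 1.59.

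MRPL12, whose protein forms the mobile arm of the stalk, had the highest value and the least certain one. Its level was 5.27, 1.55 and 3.58 CPM in tumor sphere shCtrl and 17.9, 7.47 and 5.72 CPM in shSigma libraries (1.59, adjusted p = 0.0177), and its adherent levels were 0.0384 to 1.90 CPM. The tumor sphere groups were apart, but the call was lost without shCtrl 2 (adjusted p = 0.235), shCtrl 3 (0.0691) or shSigma 1 (0.0544). MRPL12 and MRPL41 have exons of high GC content, 64.6% and 66.7%. The MRPL41 call in tumor spheres (0.60, adjusted p = 0.0131) became 0.20 with adjusted p = 0.0704 under the GC offset.

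The paralogs MRPS18A, MRPS18B and MRPS18C occupy different places in the particle. MRPS18B had no counts. MRPS18C was lower in both cultures, at 45.0, 33.1 and 31.6 CPM against 24.9, 23.5 and 28.8 CPM in adherent cells and 31.5, 43.9 and 34.7 CPM against 23.6, 24.7 and 22.6 CPM in tumor spheres. These groups did not overlap (-0.58, adjusted p = 0.0174, and -0.64, adjusted p = 0.000484), although the adherent call was lost without shSigma 1 (adjusted p = 0.0797) or shSigma 2 (adjusted p = 0.0837). MRPS18A was at 42.2 to 48.8 CPM against 40.3 to 45.9 CPM in adherent cells, which overlapped (-0.10, adjusted p = 0.441), and at 50.8 to 57.9 CPM against 41.3 to 46.9 CPM in tumor spheres, which did not (-0.34, adjusted p = 0.00197).

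**Figure D3:**
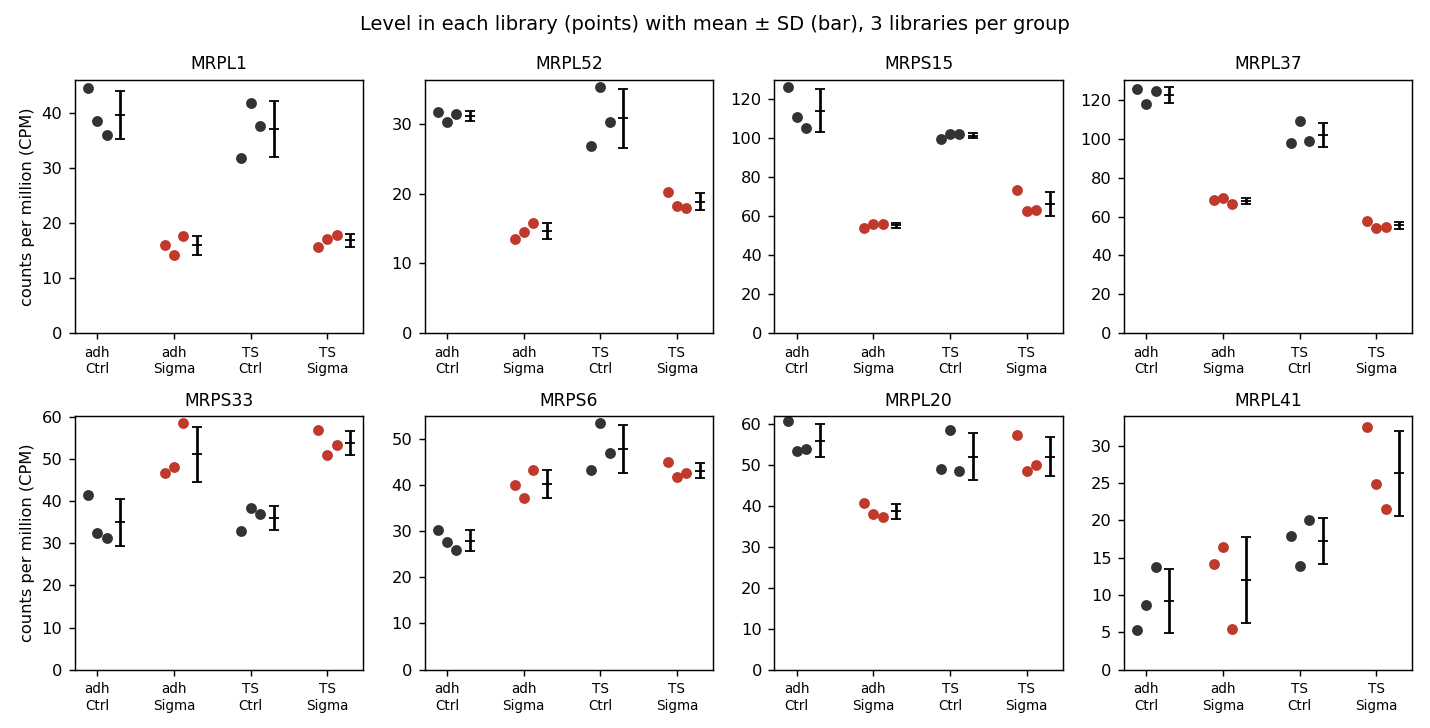
CPM of 8 members in the 12 libraries (points, grey for shCtrl and red for shSigma, from an axis at 0) with mean ± SD of 3 libraries (bar); adh is adherent, TS is tumor sphere. MRPL1, MRPL52, MRPS15 and MRPL37 are lower in shSigma in both cultures, MRPS33 is higher in both, MRPS6 is higher in adherent cells only, MRPL20 is lower in adherent cells only, and MRPL41 shows overlapping adherent groups.

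Several members lie in stretches of the genome whose genes shifted together with knockdown. For each member, the median log2 fold change of the 40 tested genes nearest to it was taken. For MRPL1, MRPL22 and MRPL39 the neighbourhood stood near 0 (between -0.03 and 0.11 in either culture), and with it subtracted their values were -1.35, -0.91 and -0.74 in adherent cells and -1.26, -0.98 and -0.98 in tumor spheres. For MRPL52 on chromosome 14 it was -0.68 and -0.64, and for MRPL37 on chromosome 1 it was -0.46 and -0.49. Around MRPS15, also on chromosome 1, it was -0.48 in adherent cells and -0.08 in tumor spheres. Of the 3 members on chromosome 8, MRPL13 stood in a neighbourhood at -0.68 and -0.61, MRPS28 at -0.44 and -0.40, and MRPL15 at -0.45 and -0.37.

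Subtraction of the neighbourhood removed several calls. MRPL52 in tumor spheres became -0.08 (adjusted p = 0.548), MRPL13 in adherent cells -0.23 (adjusted p = 0.0875), MRPS28 in adherent cells -0.30 (adjusted p = 0.0672) and MRPL15 in tumor spheres 0.03 (adjusted p = 0.673). The genes around MRPS33, on chromosome 7, were higher by 0.57 and 0.60, and relative to them MRPS33 was at -0.09 and -0.03. Around MRPL46 the medians were 0.61 and 0.35. By this measure 32 members were lower in both cultures, 25 of them among the 30 above. What moves these neighbourhoods was not tested.

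The size of the difference varied with GC content. Across the tested members, Pearson's r between exon GC content and the log2 fold change was 0.37 in adherent cells and 0.40 in tumor spheres (75 genes, measured in the same libraries), and across all genes it was 0.16 and 0.06. The 75 genes include MRPL12, of high GC content and uncertain level, and no r was taken without it. Of the 26 members with the lowest GC content, up to 42.5%, 17 were lower and 3 higher in adherent cells (median -0.46), where 37.7% and 17.6% of all genes in that range were. Of the 25 with the highest, from 52.0%, 9 were lower and 0 higher (median -0.10), against 14.7% and 23.2% of all genes in that range. In tumor spheres the first group had 18 lower and 3 higher (36.1% and 24.7% of all genes in the range) and the second 11 lower and 4 higher (24.8% and 36.5%). With the GC offset the adherent medians of the same groups were -0.30 and -0.31, and 41 members in all were lower and 6 higher. The difference in median between these adherent groups was thus not seen under the offset, while the number of members called lower was close to that without it. In tumor spheres the medians of the same groups were -0.42 and -0.15 without the offset and -0.36 and -0.29 with it. With the offset, 18 were lower and 3 higher in the first group there, and 15 lower and 1 higher in the second.

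**Figure D4:**
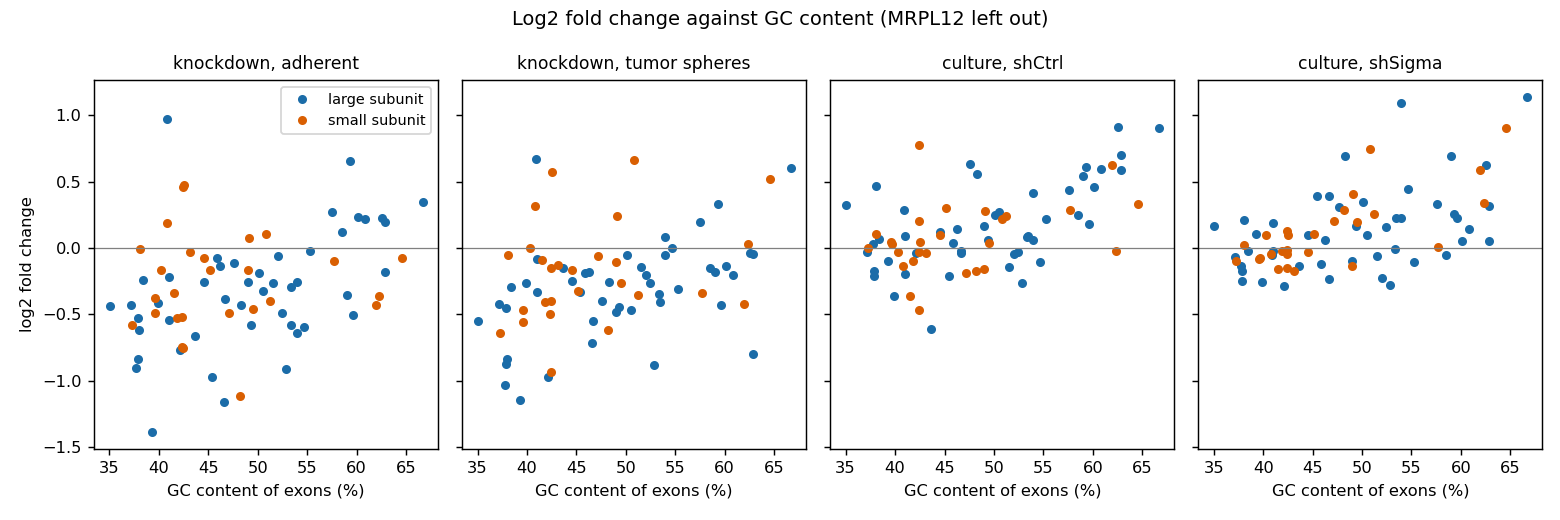
Log2 fold change of members (y axis) against GC content of their exons in percent (x axis), 1 panel for each of the 4 comparisons between groups, with MRPL12 left out because its values reach 3.25. With knockdown the members of lowest GC content had the lowest medians, and in the culture comparisons r over all 75 tested members was 0.55 in shCtrl and 0.51 in shSigma cells. These r values include MRPL12, which is not plotted.

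With growth as tumor spheres the members' medians lay closer to 0 than with knockdown, and more members were higher than lower. These comparisons share libraries with the knockdown comparisons. In shCtrl cells 7 members were lower and 19 higher in tumor spheres than in adherent cells, against 26.3% and 27.4% of all genes tested (53.7% in either direction), with a median of 0.08 over the members and 0.04 over all genes. In shSigma cells 7 were lower and 18 higher, against 25.2% and 21.9% of all genes (47.1% in either direction), with medians of 0.10 and 0.00. The shares lower were thus under those of all genes, and the shares higher were near them. In shCtrl cells the libraries of the cultures did not overlap for 11 members lower and 26 higher, where 30.8% and 31.9% of all genes were so separated, and in shSigma cells for 13 and 23 (32.5% and 28.3%). By subunit, 12 of 48 large and 7 of 27 small subunit genes were higher in shCtrl cells, and 12 and 6 in shSigma cells. The count higher in shCtrl cells was 6 without adherent shCtrl 2, 8 without tumor sphere shCtrl 3 and 11 without tumor sphere shCtrl 2, and the count lower in shSigma cells was 1 to 6 when 1 library was left out, with 1 both without adherent shSigma 1 and without tumor sphere shSigma 2.

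MRPL54, another stalk protein, rose with sphere culture in shCtrl cells, from 12.4, 14.6 and 20.1 CPM to 28.1, 28.2 and 32.3 CPM without overlap (0.91, SE 0.174, adjusted p = 0.00351). This call was lost with the GC offset (0.23, adjusted p = 0.0607) and with the neighbourhood subtracted (0.28, adjusted p = 0.217). MRPS6 rose from the adherent levels above to 43.1 to 53.4 CPM (0.77, SE 0.104, adjusted p = 0.000509), and MRPL17, of the exit tunnel, from 49.7, 49.7 and 52.0 CPM to 76.1, 73.8 and 85.4 CPM (0.64, SE 0.0758, adjusted p = 0.000273). All 3 were separated between the cultures. In the other direction, MRPL33 fell from 153, 122 and 113 CPM to 70.2, 98.3 and 86.1 CPM (-0.61, SE 0.156, adjusted p = 0.015), and MRPS27, a protein with RNA-binding repeats, from 233, 211 and 210 CPM to 153, 160 and 161 CPM (-0.47, SE 0.0628, adjusted p = 0.000499). MRPS10 fell by 0.36 on the log2 scale. MRPL12 was at 0.0384, 0.465 and 1.30 CPM in adherent and at 5.27, 1.55 and 3.58 CPM in tumor sphere shCtrl libraries (2.51, adjusted p = 0.03), a call lost with DESeq2 (adjusted p = 0.0605), with the neighbourhood subtracted (0.0766), without a filter (0.109), and without adherent shCtrl 2 (0.0936), tumor sphere shCtrl 1 (0.129) or tumor sphere shCtrl 3 (0.0943).

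In shSigma cells MRPL34, whose protein has a bacterial counterpart, rose with sphere culture from 11.8, 12.9 and 11.1 CPM to 31.6, 23.2 and 20.4 CPM (1.09, SE 0.17, adjusted p = 0.00197), and MRPS34 from 26.4, 29.7 and 21.1 CPM to 55.1, 46.3 and 41.2 CPM (0.90, SE 0.169, adjusted p = 0.00589). Neither pair of groups overlapped. The MRPS34 call was lost with the GC offset (0.13, adjusted p = 0.343) and with the neighbourhood subtracted (0.32, adjusted p = 0.161). MRPL39, MRPL37 and MRPS5 were among those lower, at -0.29, -0.28 and -0.18 (adjusted p = 0.0477, 0.00733 and 0.0404), and of these only MRPL37 kept its call under every omission of 1 library. Of the 25 members with the highest GC content 9 were higher and 1 lower in shCtrl cells, against 42.7% and 8.97% of all genes in that range, and 1 higher and 3 lower with the GC offset. In shSigma cells these counts were 8 higher and 2 lower, against 32.3% and 11.04% of all genes in the range, and 4 higher and 7 lower with the offset.

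The difference of the knockdown effect between cultures was tested in a fit of all 12 libraries. Of the 75 members 5 had a higher and 3 a lower value in tumor spheres, against 12.7% and 15.6% of all genes tested. MRPL15 (0.58, SE 0.107, adjusted p = 0.00115), MRPL20 (0.53), MRPS15 (0.44), MRPS16 (0.37) and MRPS27 (0.29) were lower by less in tumor spheres than in adherent cells. MRPL20, which has a bacterial counterpart, was at 60.7, 53.5 and 53.8 CPM against 40.7, 38.0 and 37.3 CPM in adherent cells and 49.0, 58.6 and 48.4 CPM against 57.4, 48.5 and 50.01 CPM in tumor spheres. Its adherent groups were apart and its tumor sphere groups overlapped. With the neighbourhood subtracted its interaction was 0.26 (adjusted p = 0.159), and it was then called lower in tumor spheres as well (-0.25, adjusted p = 0.0274); the MRPS15 interaction was then -0.02 (adjusted p = 0.905). MRPS16 was similar, at 164, 165 and 164 CPM against 123, 119 and 124 CPM in adherent cells and 140, 154 and 139 CPM against 139, 139 and 137 CPM in tumor spheres.

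MRPS6 (-0.67, SE 0.131, adjusted p = 0.00167), MRPL36 (-0.47) and MRPL17 (-0.35) had lower values in tumor spheres. With the neighbourhood subtracted the MRPL36 and MRPL17 calls were lost (-0.10, adjusted p = 0.639, and -0.21, adjusted p = 0.152). MRPL17 was at 76.1, 73.8 and 85.4 CPM in tumor sphere shCtrl and 61.8, 57.3 and 59.8 CPM in tumor sphere shSigma libraries, apart from each other, while its adherent groups overlapped. For 67 of the 75 members the difference between cultures did not pass the test, which does not show that the effects were equal.

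**Figure D5:**
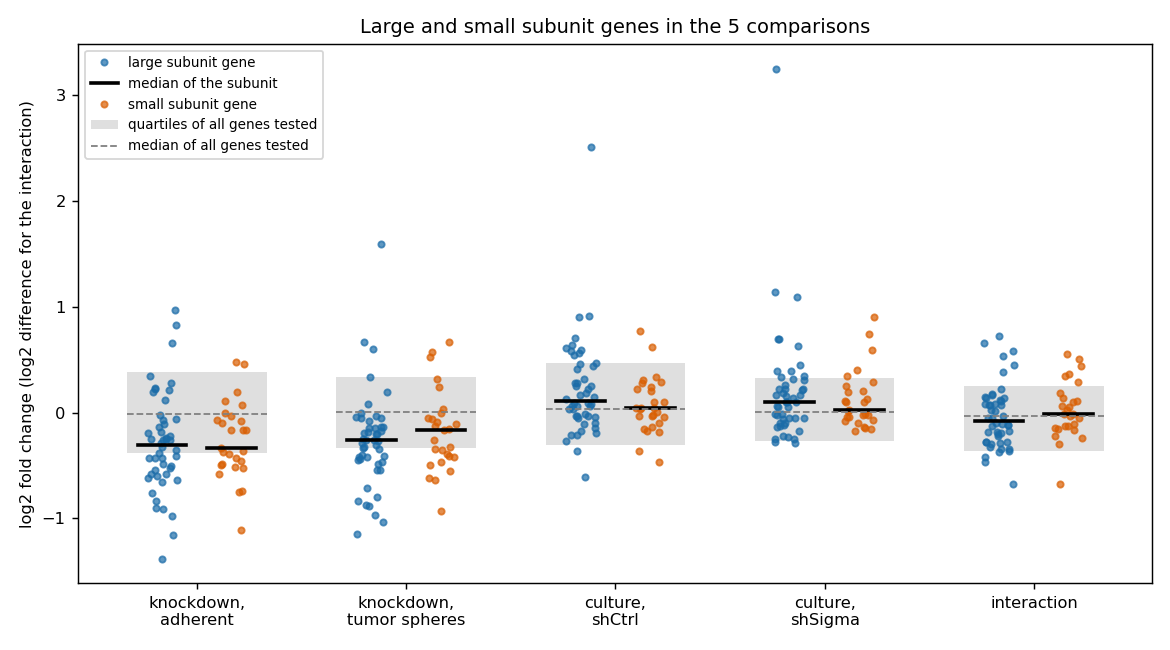
Log2 fold change of every tested member (points, blue for large and orange for small subunit genes by symbol, bar for the median) in the 5 comparisons, with the range between the quartiles of all genes tested in grey, the last being the difference of the knockdown effects. The knockdown medians lie at -0.31 and -0.34 in adherent cells and -0.26 and -0.16 in tumor spheres for the large and small subunit, and the medians of the other comparisons lie between -0.08 and 0.11.

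Genes that work beside the mitochondrial ribosome were read from lists made for this purpose, to be set beside the 27.7% lower and 22.3% higher of all genes in adherent cells and the 30.9% and 30.2% in tumor spheres. The 5 tested ribosomal proteins under other symbols had 1 that fell and 0 that rose in adherent cells, and 2 that fell and 1 that rose in tumor spheres. PTCD3, a small subunit protein that binds RNA, was lower in both (-0.36, adjusted p = 0.00898, and -0.18, adjusted p = 0.0198), CHCHD1 was lower in tumor spheres (-0.26, adjusted p = 0.0121), and DAP3, a small subunit GTP-binding protein, was higher in tumor spheres (0.16, adjusted p = 0.0304). Of 23 assembly factors, 9 fell and 5 rose in adherent cells, whereas 8 fell and 7 rose in tumor spheres (34.8% and 30.4%, near the shares of all genes), with MTERF3, which acts on mitochondrial transcription and ribosome assembly, the lowest called in both (-1.14, adjusted p = 0.00011, and -0.85, adjusted p = 1.17e-06). YBEY, a ribonuclease, was the highest called in adherent cells (0.54) and NGRN in tumor spheres (0.76).

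Among 16 translation factors and related RNA-binding proteins, the adherent comparison had 9 lower and 1 higher, and that in tumor spheres 6 and 2. SLIRP, which stabilises mitochondrial messenger RNA, was the lowest in both (-1.05, adjusted p = 0.000463, and -0.78, adjusted p = 0.000358), and the highest called were the initiation factor MTIF3 in adherent cells (0.46) and the recycling factor MRRF in tumor spheres (0.32). Of 18 mitochondrial aminoacyl-tRNA synthetases, 9 fell and 1 rose in adherent cells, while 8 fell and 2 rose in tumor spheres. LARS2, which charges leucine tRNA, was the lowest called in adherent cells (-0.77, adjusted p = 0.00015) and PARS2 in tumor spheres (-1.02, adjusted p = 4.64e-05).

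The cytosolic ribosome and complex I, whose nuclear-encoded subunits were read the same way. Of 73 tested cytosolic ribosomal protein genes, 24 fell and 0 rose in adherent cells (median -0.23), and 45 fell and 3 rose in tumor spheres (median -0.36). Of the complex I genes 11 of 35 fell and 2 rose in adherent cells (median -0.11), and 19 of 34 fell and 7 rose in tumor spheres (median -0.26). The shares that fell in adherent cells, 32.9% and 31.4%, were close to the 27.7% of all genes. In adherent cells the share of members lower (39 of 75) was above those of both lists, and in tumor spheres (40 of 75) it was under that of each. No test was made between the lists.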

How the data were processed

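RNA from 12 DU145 cultures, 4 groups of 3, was measured by RNA-seq. From 800 ng of RNA per sample the authors prepared strand-specific libraries, read them as single ends of 75 bases and deposited raw counts per Ensembl gene; their processing notes name STAR 2.6.1c, GRCh38.p12 (hg38) and DESeq. The level of the targeted gene is not reported here. The annotation, the strand setting and the treatment of reads with several places are not given in the sources used here. The study calls the libraries biological replicates without naming the source of each, so p-values measure the spread between these libraries. The members, gene lists and tests were chosen with earlier results of these data known, and are no independent support for them.

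Each comparison was fitted on the 6 libraries of its groups, and the interaction on all 12, with the quasi-likelihood test of edgeR 4.0.16 (R 4.3.3; TMM normalization, robust fit, filterByExpr with a minimum count of 10, two-sided) over the whole table. P-values were adjusted by Benjamini-Hochberg over all genes tested, and called means an adjusted p under 0.05. CPM are counts per 1e6 of the library total, given as mean ± SD. That total was taken over the genes passing the filter and rescaled by TMM factors from all 12 libraries, so CPM need not sum to 1e6. Alternatives were DESeq2 1.42.0, other scalings and filters, a replicate block, omission of each library, subtraction of the median of the 40 nearest genes and, chosen after seeing the data, a GC offset (lowess span 0.3) and omission of adherent shCtrl 1 and shSigma 3 together. Python 3.11.15, pandas 2.3.3 and matplotlib 3.10.9 were used. The fits were tested on simulated data in which 200 genes were changed 2-fold. Of these, 189 and 199 were recovered in the adherent and tumor sphere knockdown comparisons (13519 and 13316 genes), with 10 and 14 false calls. For the interaction 166 were recovered, with 6 false calls. All simulated libraries had the mean levels of adherent shCtrl cells and the same spread for every gene, without GC trends or neighbourhood shifts. Most member changes were under 2-fold, so the simulation does not show how well they were called.

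Named members were, in each comparison, the 3 highest and 3 lowest called with a mean of at least 5 CPM, the extremes of each subunit, the 3 most and least abundant per kb, the untested members, the MRPS18 paralogs and the pair MRPL37 and MRPS30; of each other list, the extremes called with knockdown. MRPL12, MRPL46, MRPL41, MRPL23 and MRPS36 and the regional examples MRPL22 and MRPL47 were named after their values were seen. Windows of 75 bases were matched exactly to the hg38 sequences, and promoters came from RefSeq (GRCh38.p14).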

Additional observations from a re-analysis of the deposited data

Results flagged for a closer look

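For 8 members the test of the interaction, the tumor sphere minus the adherent knockdown effect on the log2 scale, passed an adjusted p under 0.05 (edgeR). Over all genes tested, 28.4% passed it. By direction, 4% of the 75 members were lower and 6.67% higher, each under the 15.6% and 12.7% of all genes. The value was 0.58 for MRPL15, 0.53 for MRPL20, 0.44 for MRPS15, 0.37 for MRPS16 and 0.29 for MRPS27, and it was -0.67 for MRPS6, -0.47 for MRPL36 and -0.35 for MRPL17. The MRPL36 and MRPL17 calls were each kept in 6 of 12 omissions of a library, and that of MRPS27 in 4 of 12. The MRPL36 call was also lost with the GC offset (-0.33, adjusted p = 0.187) and with the median of the 40 nearest genes subtracted (-0.10, adjusted p = 0.639), that of MRPL17 with DESeq2 (adjusted p = 0.0593) and the same subtraction (0.152), that of MRPS27 with the replicate block (0.0611), and that of MRPL20 with the subtraction (0.26, adjusted p = 0.159). The genes around MRPS15 had a median interaction of 0.46, and with it subtracted MRPS15 was at -0.02. Groups of 3 libraries are too small for a test of single outlying libraries.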

How the results depend on the processing

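Depth differed widely between members: 34 had a median over 1000 counts per library and 8 a median under 100, whose single values are the least certain. The cause was not tested for any change listed here. The members called lower with knockdown stayed within 1.5 times in both cultures under every alternative run except a fold threshold and, in adherent cells, the omission of shSigma 1 or 2. Beyond a log2 fold change of 1, the counts were 3 lower and 0 higher in adherent and 2 lower and 1 higher in tumor sphere knockdown, 0 lower and 1 higher with culture in shCtrl, 0 lower and 2 higher with culture in shSigma, and 0 and 0 for the interaction.

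At an adjusted p under 0.01 there were 4 higher with tumor sphere knockdown, 4 lower and 6 higher with culture in shCtrl, 1 lower and 11 higher with culture in shSigma, and 1 lower for the interaction. In 1 fit of all 12 libraries 6 were higher with adherent and 5 with tumor sphere knockdown. The members lower with culture in shSigma numbered 1 with DESeq2, 4 with its size factors and 3 with upper-quartile scaling, and for the interaction 1 was lower with at least 10 counts in every library or without a filter. Without adherent shCtrl 1 and shSigma 3 together, 38 were lower and 7 higher with adherent knockdown and 5 lower and 8 higher for the interaction.

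The GC offset gave 6 higher with adherent and 5 higher with tumor sphere knockdown, and 7 lower and 10 higher for the interaction. It reversed MRPS30 in adherent knockdown (0.165), MRPS34 (-0.537) and MRPS18A (-0.0797) with culture in shCtrl, and MRPL36 (-0.312) and MRPS18A (-0.229) with culture in shSigma. Subtraction of the median of the 40 nearest genes gave 2 higher with tumor sphere knockdown, 13 lower with culture in shCtrl and 1 lower for the interaction. It reversed MRPS33 with knockdown (-0.0877 and -0.0305), MRPL15 in tumor spheres (0.0342), MRPS34 with culture in shCtrl (-0.299), MRPL20 with culture in shSigma (-0.244) and the interaction of MRPS15 (-0.0231). It also reversed the medians with culture in shCtrl of all members (-0.0247) and the large subunit (-0.0616), and of the large subunit with culture in shSigma (-0.0181) and for the interaction (0.0433). That last median was 0.0264 without a filter, and from -0.0771 to 0.0146 with libraries left out (0.00943 without adherent shSigma 3, 0.0146 without tumor sphere shCtrl 2).

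With each library left out in turn, adherent knockdown gave 24 to 42 lower and 2 to 5 higher (5 without shSigma 3), tumor sphere knockdown 37 to 45 lower and 5 to 10 higher (5 without shSigma 1), culture in shCtrl 5 to 10 lower and 6 to 17 higher, culture in shSigma 1 to 6 lower and 12 to 26 higher, and the interaction 1 to 4 lower and 4 to 8 higher. The ratio of large to small subunit was 1.63, 1.57, 1.78 and 1.61 with MRPS18A and MRPS30 in the large subunit and 1.98, 1.84, 2.13 and 1.91 per kb of exon, in the order adherent shCtrl, adherent shSigma, tumor sphere shCtrl and tumor sphere shSigma.

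The sources used here do not say whether same-numbered libraries of different groups belong together. Correlations between libraries of different groups were taken after the mean of each group was subtracted from each gene. They ranged from -0.849 to 0.429 for same-numbered libraries and from -0.743 to 0.816 for differently numbered ones. With the replicate number as a block, 28 members were lower and 2 higher with adherent knockdown, 41 and 9 with tumor sphere knockdown, 5 and 15 with culture in shCtrl, 7 and 17 with culture in shSigma, and 3 and 4 for the interaction.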
